A study of Mus musculus with 6 samples.

Results

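The methyl-CpG reader genes examined here are 7 genes, Mbd1, Mbd2, Mbd3, Mbd4, Zbtb33, Zbtb4 and Uhrf2, whose proteins bind methylated CpG sites or belong to the families that do. They were chosen by gene symbol, and all 7 were found among the 34245 genes of the expression table. The study followed peripheral T-cell lymphomas (PTCL) of mice that carry a single working allele of Dnmt3b, a de novo DNA methyltransferase. Its RNA-seq group holds 3 Dnmt3b+/- PTCL, taken as separate samples from lymph nodes of terminally sick FVB mice. The knockout allele is carried in the germline, so every cell of the mouse is heterozygous, and ages were not given in the labels. No other RNA-seq group was analysed here, so all values describe these 3 tumors and no test between groups was possible. FPKM is the number of fragments on a gene corrected for exon length and for sequencing depth, which allows levels of different genes to be set side by side.

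Methyl-CpG readers connect DNA methylation to chromatin. Proteins with a methyl-CpG binding domain recruit histone deacetylases and histone methyltransferases to methylated promoters, the zinc finger proteins of the Kaiso family bind methylated CpG sites through a different fold, and the UHRF proteins recognize modified cytosine through an SRA domain. Mbd4 differs from the others in that it is also a DNA glycosylase, which removes the thymine left when methylcytosine is deaminated.

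Promoter sequences of 300 bases around the RefSeq start (GRCm38.p6) were matched for 5 of the 7 genes. They are shown for Mbd3, the gene with the highest mean FPKM, for Mbd4, the gene with the lowest, and for Zbtb33, the gene that differed most between tumors in FPKM as deposited, with every CpG in capitals. The Mbd3 window is chr10:80399482-80399781 on the minus strand, the Mbd4 window is chr6:115853292-115853591 on the minus strand, and the Zbtb33 window is chrX:38189543-38189842 on the plus strand. Each sequence runs 5′ to 3′ in the direction of the gene.
Mbd3: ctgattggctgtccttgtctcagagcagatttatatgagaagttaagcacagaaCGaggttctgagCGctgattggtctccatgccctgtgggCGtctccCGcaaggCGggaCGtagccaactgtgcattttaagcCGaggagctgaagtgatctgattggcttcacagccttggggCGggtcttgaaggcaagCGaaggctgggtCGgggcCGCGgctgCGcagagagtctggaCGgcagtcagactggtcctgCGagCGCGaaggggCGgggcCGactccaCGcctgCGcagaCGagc
Mbd4: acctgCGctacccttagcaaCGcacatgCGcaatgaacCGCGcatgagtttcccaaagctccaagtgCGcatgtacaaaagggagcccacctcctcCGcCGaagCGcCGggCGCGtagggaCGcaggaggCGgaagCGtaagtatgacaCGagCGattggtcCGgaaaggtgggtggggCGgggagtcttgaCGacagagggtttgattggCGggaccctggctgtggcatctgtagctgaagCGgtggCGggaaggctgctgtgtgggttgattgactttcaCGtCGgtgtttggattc
Zbtb33: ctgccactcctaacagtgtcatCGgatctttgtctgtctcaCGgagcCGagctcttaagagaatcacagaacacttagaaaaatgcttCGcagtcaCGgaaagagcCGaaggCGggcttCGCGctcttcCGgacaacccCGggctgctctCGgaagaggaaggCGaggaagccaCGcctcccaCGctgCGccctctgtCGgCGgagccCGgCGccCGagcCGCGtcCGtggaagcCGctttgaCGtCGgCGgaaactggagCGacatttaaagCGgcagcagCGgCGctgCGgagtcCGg
Zbtb33 held 34 CpG in its window, more than 92.3% of all 32851 promoter windows. Uhrf2 held 28, Mbd4 held 25, and Mbd3 and Zbtb4 held 22 each, against a median of 7 over all windows. The CCAAT letters, searched on both strands, occurred 3 times in the Mbd3 window and 2 times in the Mbd4 window but not in those of Zbtb33, Zbtb4 and Uhrf2, and 37.4% of all windows held them. The letters TGCGCA, the core of the NRF1 site, occurred 2 times each in the windows of Mbd3 and Mbd4 and in 7.76% of all windows. TCCTGCNA, a site that Kaiso itself is known to bind without methylation, occurred 1 time in the Mbd3 window and in 4.96% of all windows. GGGCGG occurred in the windows of Mbd3, Mbd4, Zbtb4 and Uhrf2 (35.7% of all windows), CCGGAA in those of Mbd4, Zbtb33 and Zbtb4 (14.9%), TGACGT in that of Zbtb33 (7.51%), and CACGTG in none of the 5 (7.15%). These matches describe the letters only.

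Library depth, recovered from the FPKM of genes without a read, was 30726570, 18969988 and 20770928 reads for tumors 1, 2 and 3. All 7 reader genes reached at least 1 FPKM in each tumor, which 28.4% of all genes did. The median of their mean levels was 7.86 FPKM, against 5.70 FPKM over the 11197 genes with a mean of at least 1 FPKM. The FPKM of the 7 genes as deposited summed to 86.9, 83.4 and 87.6 in tumors 1, 2 and 3, while single genes moved in opposite directions. The sum was taken on this scale only. How far it differs between tumors depends on how the libraries are scaled. In these bulk samples, fewer cells of a type and less RNA per cell cannot be told apart.

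**Figure D1:**
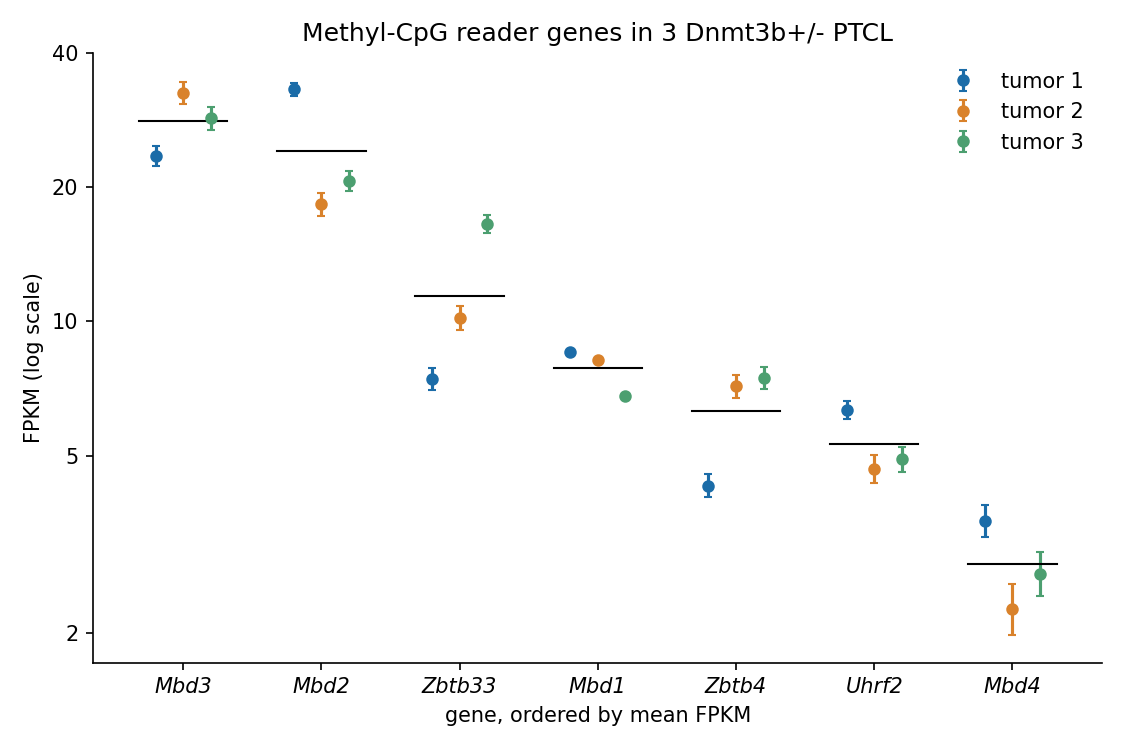
FPKM of the 7 reader genes (log scale) in each tumor, with 95% exact Poisson intervals of the recovered reads, which cover counting error only, and the mean of the 3 tumors as a line. Mbd1 has no interval because its reads could not be recovered as whole numbers. Means run from 28.2 FPKM for Mbd3 to 2.85 FPKM for Mbd4.

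Mbd3 (ENSMUSG00000035478, chr10:80392539-80399550 in mm10, minus strand), a subunit of the nucleosome remodeling and deacetylase complex NuRD whose domain binds methylated DNA only weakly, reached 23.5, 32.5 and 28.5 FPKM in tumors 1, 2 and 3. Its mean of 28.2 ± 4.5 FPKM (SD, n = 3) was the highest of the 7 genes. Tumor 1 was the low tumor. In FPKM as deposited, its 95% interval of 22.3 to 24.8 FPKM from 1437 reads did not overlap those of the other tumors. With FPKM rescaled to sum to 1000000 in each tumor, tumors 1 and 3 were nearly level, at 125 and 128.

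Mbd2 (ENSMUSG00000024513, chr18:70568189-70626131, plus strand), the methylation-binding subunit that takes the place of Mbd3 in NuRD, reached 33.2, 18.3 and 20.6 FPKM in the same tumors. Here tumor 1 was the high tumor, and its interval of 32.1 to 34.3 FPKM lay above those of the others. The mean was 24.1 ± 7.99 FPKM (SD, n = 3). The difference between the means of Mbd3 and Mbd2, 4.15 FPKM, was smaller than its SD over the tumors, 12.4 FPKM, and Mbd3 was above Mbd2 in 2 of 3 tumors.

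Because both genes are read in the same library, their ratio does not depend on how the libraries are scaled. The Mbd2 to Mbd3 ratio was 1.41 in tumor 1 (95% counting interval 1.33 to 1.5), 0.564 in tumor 2 (0.520 to 0.611) and 0.723 in tumor 3 (0.669 to 0.782). Mbd2 was thus the more abundant transcript in tumor 1 and Mbd3 in the other two, and the highest ratio was 2.50 times the lowest. The geometric mean over the tumors was 0.831. Without tumor 2 it was 1.01, so the side of 1 on which it falls rests on that tumor.

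The other NuRD positions with paralogs also shifted between tumors, in no case past equality. Chd3 was above Chd4, the other remodeling ATPase, with ratios of 1.12, 2.02 and 1.41 in tumors 1, 2 and 3. Rbbp7 was above Rbbp4, a second histone chaperone, with ratios of 3.41, 6.35 and 5.05. Gatad2a was above Gatad2b, the partner scaffold that binds Mbd2 and Mbd3, with ratios of 2.01, 3.91 and 2.65. In these 3 pairs tumor 1 had the lowest ratio and tumor 2 the highest. Mbd3 to Mbd2, the ratio above turned over, had the same order. The Hdac and Mta pairs that follow did not have it in either direction. How often other pairs of genes have this order was not tested. Hdac1 to Hdac2, the deacetylases, had ratios of 2.59, 2.38 and 1.70, and Mta2 to Mta1 had 2.46, 2.23 and 3.54. Mta2 was also above Mta3, with ratios of 6.22, 6.01 and 7.73. Of the 13 NuRD genes, 12 reached 1 FPKM in each tumor, against 28.4% of all genes, and the median of their means was 16.5 FPKM. The 3 most abundant were Rbbp7 with 76.9 ± 10.8 FPKM, Chd3 with 48.4 ± 16.0 and Mta2 with 43.9 ± 2.63 (SD, n = 3). Hdac1, at 26.5, 12.4 and 13.9 FPKM in tumors 1, 2 and 3, was the only 1 of the 12 NuRD genes with a mean of at least 1 FPKM whose highest tumor was at least 2 times its lowest, against 34.4% of genes with such a mean. With median-of-ratios factors its ratio was 1.89 and Chd3 passed in its place with 2.04. Chd5 had a mean of 0.0232 FPKM and no read in tumor 3.

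**Figure D2:**
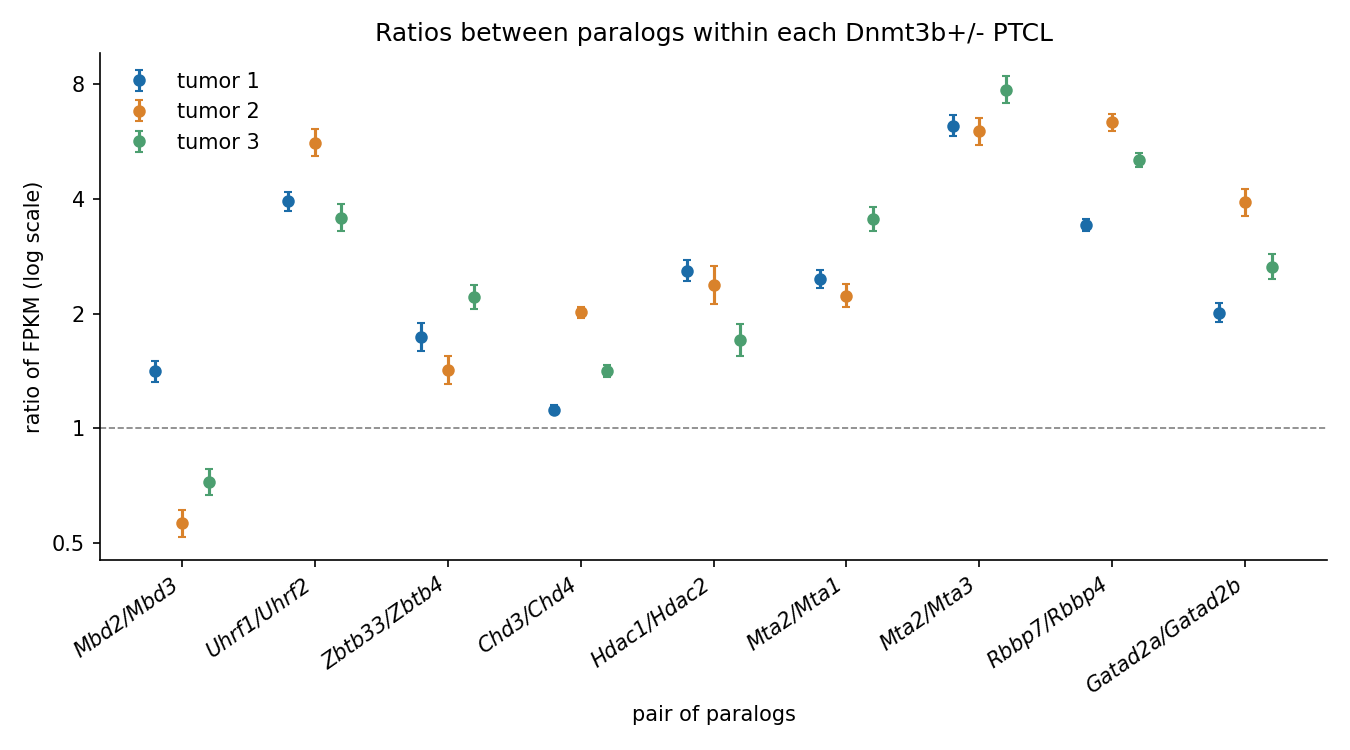
Ratio of FPKM between paralogs (log scale) within each tumor, with 95% counting intervals. The dashed line marks equal levels. Mbd2/Mbd3 lies above the line in tumor 1 (1.41) and below it in tumors 2 and 3 (0.564 and 0.723), whereas each other pair lies above the line in all 3 tumors.

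Mbd1 (ENSMUSG00000024561, chr18:74267605-74282732, plus strand), which recruits the histone methyltransferase Setdb1 through Atf7ip, was read at 8.54 FPKM in tumor 1, 8.21 FPKM in tumor 2 and 6.81 FPKM in tumor 3. The mean was 7.86 ± 0.919 FPKM (SD, n = 3). Its highest tumor was 1.25 times its lowest, the smallest such ratio of the 7 genes in FPKM as deposited. With FPKM rescaled to sum to 1000000 in each tumor the ratio was 1.49, and that of Mbd3 was smaller (1.26).

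Mbd4 (ENSMUSG00000030322, chr6:115840697-115853371, minus strand), the glycosylase, stood at 3.57, 2.27 and 2.72 FPKM in tumors 1, 2 and 3. Tumor 1 was high, as for Mbd2. The mean of 2.85 ± 0.661 FPKM (SD, n = 3) was the lowest of the 7 genes and rests on 579, 227 and 298 reads. An antisense gene, Gm44206, shares 264 bases (5%) of the Mbd4 exons. Gm44206 had 1.83, 1.01 and 1.28 FPKM, in the same order of tumors as Mbd4. The use of strand in counting is not given in the sources used here, so reads there cannot be assigned to one of them, and their part in the Mbd4 level was not tested. Tdg, the other glycosylase for thymine opposite guanine, stood at 5.23, 2.19 and 1.81 FPKM. Of the 10 genes listed for base excision repair of deaminated methylcytosine, Tdg and other glycosylases included and Mbd4 not, 10 reached 1 FPKM in each tumor (28.4% of all genes), with a median of 4.63 FPKM. Their 3 most abundant genes were Parp1 with 19.5 ± 1.37 FPKM, Apex1 with 18.7 ± 6.16 and Fen1 with 18.3 ± 2.41 (SD, n = 3). Tdg alone of the 10 had a highest tumor at least 2 times its lowest, against 34.4% of genes with a mean of at least 1 FPKM.

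Zbtb33 (ENSMUSG00000048047, chrX:38189793-38197046, plus strand) encodes Kaiso, a zinc finger repressor that brings the NCoR corepressor to methylated sites. Its FPKM was 7.43, 10.2 and 16.6 in tumors 1, 2 and 3, a mean of 11.4 ± 4.68 (SD, n = 3). Tumor 3 was the high tumor, and the 95% intervals of the 3 tumors did not overlap. Exons of Tmem255a, on the opposite strand, cover 474 bases (9.25%) of the Zbtb33 exons, and Tmem255a itself had at most 0.954 FPKM.

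Zbtb4 (ENSMUSG00000018750, chr11:69765912-69784023, plus strand), a related zinc finger protein that also binds methylated CpG, reached 4.29, 7.16 and 7.48 FPKM, a mean of 6.31 ± 1.76 (SD, n = 3). Tumor 1 was low and the intervals of tumors 2 and 3 overlapped. The Zbtb33 to Zbtb4 ratio came to 1.73, 1.42 and 2.21 in tumors 1, 2 and 3, so Zbtb33 was the more abundant of the pair in every tumor. Of the 16 genes listed as other partners of the readers, 14 reached 1 FPKM in each tumor, against 28.4% of all genes. The most abundant were Cbx5 with 18.5 ± 4.5 FPKM, Usp7 with 17.9 ± 6.11 and Ncor1, a corepressor of Kaiso, with 14.0 ± 1.67 (SD, n = 3). Usp7, at 24.0, 11.8 and 17.9 FPKM, and Tbl1xr1, a subunit of the NCoR complex, at 9.88, 4.80 and 5.35 FPKM, were the 2 genes with at least a 2-fold span among the 14 of the list with a mean of at least 1 FPKM, against 34.4% of all genes with such a mean. With median-of-ratios factors their ratios were 1.80 and 1.82, and none of the 14 had such a span.

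Uhrf2 (ENSMUSG00000024817, chr19:30030513-30093722, plus strand), a ubiquitin ligase that binds hydroxymethylated and methylated cytosine, was measured at 6.33, 4.66 and 4.90 FPKM in tumors 1, 2 and 3, a mean of 5.30 ± 0.903 (SD, n = 3). Tumor 1 was high and the intervals of tumors 2 and 3 overlapped. Its paralog Uhrf1, which guides the maintenance methyltransferase Dnmt1 to replicated DNA, was measured at 24.9, 26.2 and 17.5 FPKM. The Uhrf1 to Uhrf2 ratio was 3.94, 5.61 and 3.57 in tumors 1, 2 and 3, so Uhrf1 exceeded Uhrf2 in every tumor. Of the 11 other reader and MBD-domain genes listed, 7 reached 1 FPKM in each tumor (28.4% of all genes). None of these 7 had a 2-fold span in FPKM as deposited, against 34.4% of genes with a mean of at least 1 FPKM, but 1 did with median-of-ratios factors and 2 with FPKM rescaled to 1000000. Uhrf1, Baz2a (12.8 ± 2.41 FPKM) and Mbd6 (10.2 ± 3.22 FPKM; SD, n = 3) were the most abundant. Among the 3 DNA methyltransferases, whose product the readers bind, Dnmt1 had 29.6 ± 5.28 FPKM, Dnmt3a 3.35 ± 2.12 and Dnmt3b 1.26 ± 0.287 (SD, n = 3), and Dnmt3a alone of the 3 had at least a 2-fold span, against the same 34.4%.

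The order of the means was Mbd3, Mbd2, Zbtb33, Mbd1, Zbtb4, Uhrf2 and Mbd4. Only for Mbd2 above Zbtb33 and Uhrf2 above Mbd4 was the difference between neighbours larger than its SD over the tumors and present in 3 of 3 tumors. The remaining neighbours, Mbd3 and Mbd2, Zbtb33 and Mbd1, Mbd1 and Zbtb4, and Zbtb4 and Uhrf2, changed places in 1 tumor each and did not differ beyond their spread.

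Between tumors, 1 of the 7 genes, Zbtb33, had a highest tumor at least 2 times its lowest (2.23, 95% counting interval 2.07 to 2.40). Over the genes with a mean of at least 1 FPKM the share was 34.4%. The median ratio of highest to lowest tumor was 1.57 over the 7 genes and 1.68 over all these genes. Taken by pairs, Zbtb33 passed 2-fold between tumors 1 and 3 (17.7% of genes), and none of the 7 genes did between tumors 1 and 2 (25.2%) or tumors 2 and 3 (16.4%). The ratio was 1.81 for Mbd2, 1.75 for Zbtb4, 1.57 for Mbd4, 1.38 for Mbd3 and 1.36 for Uhrf2. With FPKM rescaled to sum to 1000000 in each tumor, the Zbtb33 ratio was 1.88, below that of Mbd2 (1.98), and no reader gene passed 2-fold. With median-of-ratios factors the Zbtb33 ratio was 2.61, and Zbtb4 passed as well with 2.05. Single tumors set several of these ratios. Without tumor 3 the ratio of Zbtb33 was 1.37, and without tumor 1 those of Mbd2 and Zbtb4 were 1.13 and 1.04.

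**Figure D3:**
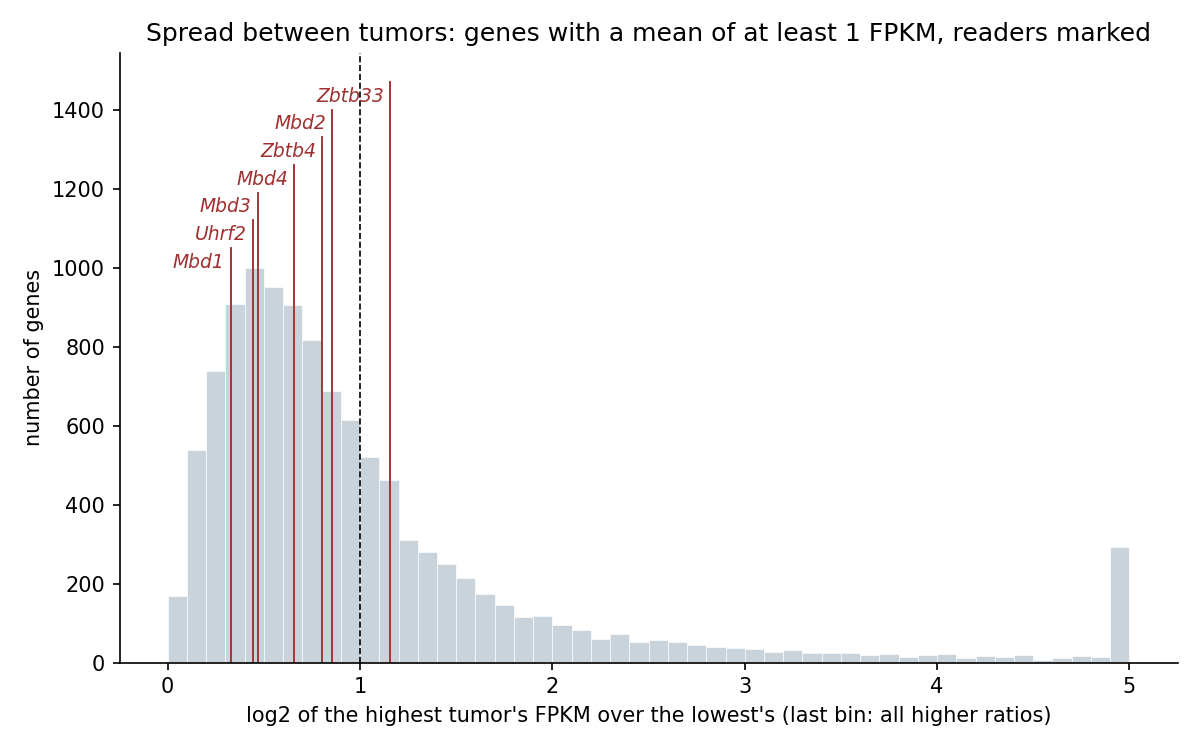
Number of genes by the log2 ratio of the highest to the lowest tumor, over 11197 genes with a mean of at least 1 FPKM, for FPKM as deposited, with the 7 reader genes as red lines and 2-fold as a dashed line. Zbtb33 alone lies to the right of the dashed line, and the 7 genes lie within the bulk of the distribution.

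Tumor 1 stood at one end of the range for each of the 7 genes, a pattern noticed after the values were seen. It was the highest tumor for 4 of 7 (Mbd1, Mbd2, Mbd4 and Uhrf2), against 50.6% of genes with a mean of at least 1 FPKM, and the lowest for 3 of 7 (Mbd3, Zbtb33 and Zbtb4), against 24.3%. These 2 shares add up, since no gene is in both, so tumor 1 stood at one end for most genes with such a mean. Median-of-ratios factors moved all genes of tumor 1 by -0.14, of tumor 2 by 0.03 and of tumor 3 by 0.09 on the log2 scale. Tumor 1 was then the highest for 36.9% of genes with a mean of at least 1 FPKM and the lowest for 36.2%. With FPKM rescaled to 1000000 these shares were 60.5% and 15.3%. On both of these scales tumor 1 was still highest for Mbd2, Mbd4 and Uhrf2 and lowest for Mbd3, Zbtb33 and Zbtb4. For Mbd3 with FPKM rescaled to 1000000, however, tumors 1 and 3 were nearly level, at 125 and 128. Mbd1 changed, with tumor 2 its highest tumor under median-of-ratios factors.

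**Figure D4:**
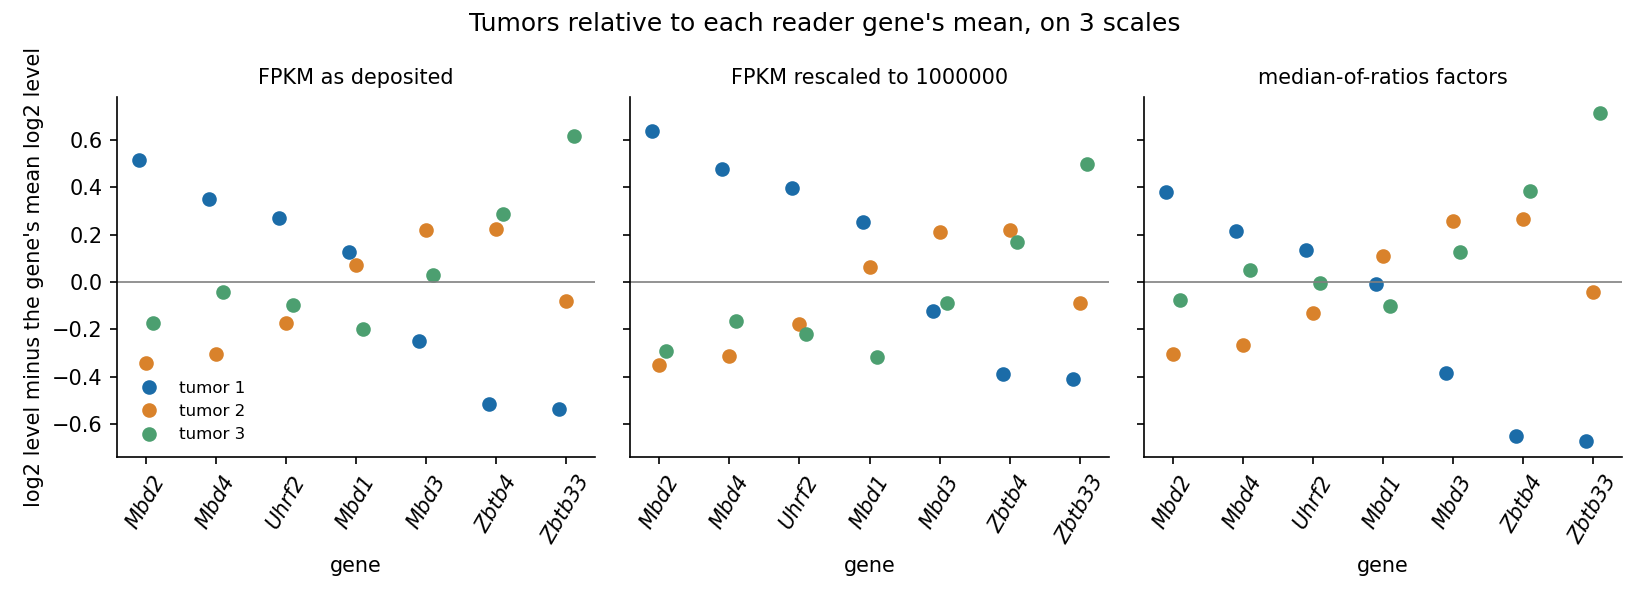
Level of each reader gene in each tumor as the log2 difference from the gene's mean log2 level, for FPKM as deposited, FPKM rescaled to 1000000 and FPKM divided by median-of-ratios factors. Tumor 1 is at the top for Mbd2, Mbd4 and Uhrf2 and at the bottom for Mbd3, Zbtb4 and Zbtb33 on all 3 scales, while Mbd1 changes place. For Mbd3, tumors 1 and 3 are nearly level with FPKM rescaled to 1000000.

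The profiles of single reader genes were shared by many other genes. Among 11189 genes with a mean of at least 1 FPKM, the 2 nearest to Mbd2 by distance between centred log2 profiles over the 3 tumors included Sec14l1. The nearest to Mbd4 were AC099934.7 and Trappc11, to Uhrf2 4930469K13Rik and Elp5, and to Mbd1 Stoml2 and Htt. The nearest to Mbd3 were 1700016D08Rik and Gnal, to Zbtb4 Mrpl16 and Agbl5, and to Zbtb33 Gm28041 and Pogk. Within a distance of 0.1 there were 316 genes for Uhrf2, 298 for Mbd4, 290 for Mbd1, 197 for Mbd2 and 195 for Mbd3, but 46 for Zbtb4 and 23 for Zbtb33. Among the reader genes themselves the closest pair was Mbd4 and Uhrf2 (0.165) and the farthest Mbd2 and Zbtb33 (1.34).

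Transcripts of cell type markers and of cell cycle genes also differed between the tumors. All 11 T cell markers were above 1 FPKM in each tumor, against 28.4% of all genes. Their summed FPKM was 1782, 1311 and 1746 in tumors 1, 2 and 3, with Cd8b1 as the most abundant (435, 166 and 443 FPKM). Single T cell markers did not follow the sum, since tumors 1, 2 and 3 were each the highest for 4, 5 and 2 of the 11 and the lowest for 5, 5 and 1. Over all genes with a mean of at least 1 FPKM, tumors 1, 2 and 3 were the highest for 50.6%, 33.7% and 15.7%. They were the lowest for 24.3%, 38.3% and 37.4% of these genes. Tumor 1, which was high for Mbd2, Mbd4 and Uhrf2, was the highest for 14 of 15 cell cycle genes, against that 50.6%, and for 11 of 15 with median-of-ratios factors, against 36.9%. These genes had summed FPKM of 406, 263 and 215 and Pcna as the most abundant (88.0, 55.9 and 63.6 FPKM), followed by Mcm3 and Mcm6. In 8 of the 15, namely Mki67, Top2a, Ccnb1, Ccna2, Birc5, Bub1, Rrm2 and Plk1, the highest tumor was at least 2 times the lowest, against 34.4% of all genes with a mean of at least 1 FPKM. Tumor 1 was also the highest for 7 of 8 macrophage markers, against the same 50.6%. They had summed FPKM of 436, 147 and 36.6, led by Lyz2 (215, 33.1 and 20.3 FPKM), and none was without a read. The erythroid markers summed to 171, 35.3 and 3.53 FPKM, led by Hba-a1 (92.3, 19.6 and 1.90 FPKM), and 4 of 5 were highest in tumor 1, again against 50.6%. The 6 neutrophil markers summed to 36.2, 1.42 and 15.4 FPKM, led by S100a9 (22.6, 1.01 and 10.4 FPKM), and Elane had no read in any tumor, while Mpo and Ly6g had none in tumors 2 and 3.

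Tumor 2, which was high for Mbd3, had the highest summed FPKM of the 10 pancreatic acinar markers, with 95.7, 493 and 0.732 in tumors 1, 2 and 3, led by Ctrb1 (33.9, 198 and 0.0494 FPKM). In tumor 3, Ctrb1, Cpa1, Cel and Try4 had no read. The 8 stromal markers summed to 24.5, 55.0 and 5.36 FPKM, led by Pecam1 (12.2, 10.9 and 4.86 FPKM). Of the 5 stromal markers with a mean of at least 1 FPKM, 3 were highest in tumor 2, against 33.7% of genes with such a mean. These were the collagen genes Col1a1 (1.63, 15.5 and 0.315 FPKM), Col1a2 and Col3a1. The other 2 were highest in tumor 1. With median-of-ratios factors 4 of the 5 were highest in tumor 2 and 1 in tumor 1. Each of these tumors was then the highest for 36.9% of genes with a mean of at least 1 FPKM. Lum had no read in tumor 3. Tumor 3, which was high for Zbtb33, had the highest summed FPKM of the 7 B cell markers, with 63.8, 50.6 and 121, led by Cd79a (23.1, 7.31 and 49.0 FPKM). Of the 7, 6 were highest there, against 15.7% of all genes with a mean of at least 1 FPKM. The other, Cd22, was highest in tumor 2, with 5.84, 36.5 and 13.9 FPKM in tumors 1, 2 and 3. The part of cell composition and of the cell cycle genes in the levels of the reader genes was not tested.

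**Figure D5:**
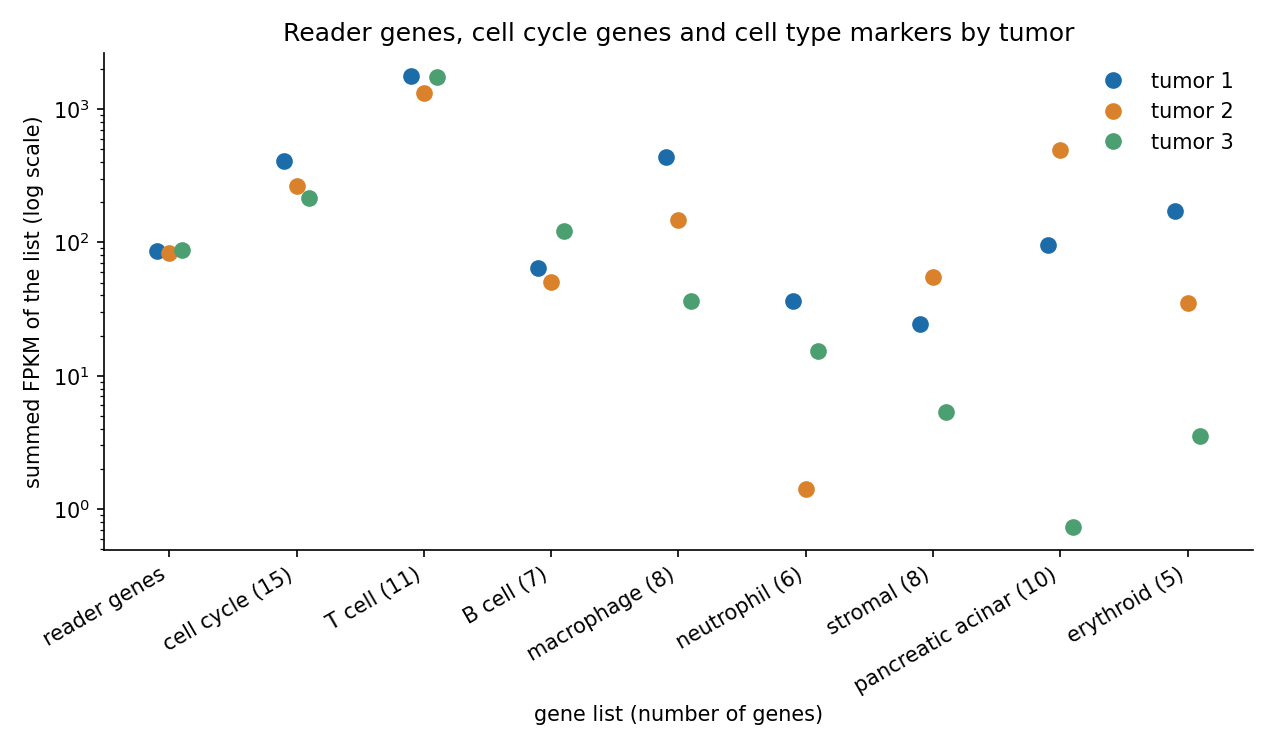
Summed FPKM as deposited (log scale) of the 7 reader genes, of the cell cycle genes and of each list of cell type markers in each tumor. The number of genes of each list is in brackets. The reader genes sum to 86.9, 83.4 and 87.6 FPKM, whereas the pancreatic acinar markers run from 0.732 FPKM in tumor 3 to 493 FPKM in tumor 2.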

How the data were processed

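RNA-seq of 3 Dnmt3b+/- PTCL was analysed. The authors trimmed paired-end reads, aligned them to mm10 with STAR and quantified them in SeqMonk, and deposited FPKM per gene, on a linear scale and per tumor. Whole-genome bisulfite sequencing was not analysed here.

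The value entered for a gene with no read equals 0.9 read, from which depth was derived. Reads were recovered with merged exon lengths of GENCODE M21 (GRCm38). Over genes with such a length, 93.4%, 93.4% and 93.6% of the values in tumors 1, 2 and 3 were whole to within 0.05 read or were those of 0.9 read. Mbd1 was not among them, so its reads are not given. Intervals of levels are 95% exact Poisson intervals and those of ratios use the normal approximation on the log scale. Both cover counting error only. A count of 0 is given as up to 3 reads, a one-sided 95% limit that lies below the upper end of the exact interval.

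The members and lists were chosen with earlier results of these data known, and the promoter motifs were chosen after the promoters of the reader genes had been seen. Named genes were the 7 readers, the 3 most abundant genes of each list other than cell type markers, those with a highest tumor at least 2 times the lowest at a mean of at least 1 FPKM, those in paralog ratios, and the 2 nearest profiles per reader gene. Of the cell type markers only the most abundant and those without a read are named. Some genes that these rules select are not reported here. Gm44206, Tmem255a, Chd5, Cd22 and the collagen genes were named after their values were seen. Alternatives were 2 other scales, other thresholds, a pseudocount of 1 and leaving out each tumor. The steps were tested on simulated data. Python 3.11.15, NumPy 2.4.6, pandas 2.3.3, SciPy 1.17.1 and matplotlib 3.10.9 were used.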

Additional observations from a re-analysis of the deposited data

How the results depend on the processing

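Leaving out 1 tumor at a time gave means of 8.81 to 13.4 FPKM for Zbtb33 and of 19.5 to 26.9 FPKM for Mbd2. With 3 tumors, such a mean cannot move by a whole SD. Median-of-ratios factors moved no reader gene's mean by its SD. With FPKM rescaled to sum to 1000000, the scale itself is larger, and the means were 38.5 for Mbd1, 119 for Mbd2, 136 for Mbd3, 14.0 for Mbd4, 54.2 for Zbtb33, 30.3 for Zbtb4 and 26.0 for Uhrf2. The number of reader genes past 2-fold, 1 as deposited, was 0 with rescaled FPKM, 2 with median-of-ratios factors and 4 at 1.5-fold. Under the same settings the percent of genes with a mean of at least 1 FPKM past the fold was 39.4, 32.5 and 62.8. These percentages were added after seeing the data. With a filter at a mean of 0.2 or 5 FPKM the percent was 43.4 and 27.2. All 7 genes passed 0.2 FPKM in each tumor and 4 passed 5 FPKM, against 36.7 and 14.1 percent of all genes, shares also added after seeing the data. The geometric mean Mbd2 to Mbd3 ratio ran from 0.639 to 1.01 when 1 tumor was left out, and it was above 1 without tumor 2. The mean of the 7 levels was 12.3 FPKM, against a median of 7.86. Mbd1 has no counting interval. Among the ratios of highest to lowest tumor of the 6 other reader genes, 5 moved beyond that interval with rescaled FPKM, 5 with median-of-ratios factors and 1 with a pseudocount of 1. Of their 18 ratios with 1 tumor left out, 10 did. Leaving out a gene's middle tumor cannot change its ratio, so 1 of the 3 ratios of each gene could not move. Leaving out another tumor can only lower it. The numbers past 2-fold in the other gene lists were also set against both scales after seeing the data. With rescaled FPKM they were 2 of the 7 other readers, 2 of 12 NuRD genes, 2 of 14 other partners, 2 of 10 repair genes and 9 of 15 cell cycle genes, and with median-of-ratios factors 1, 1, 0, 1 and 8. No paired analysis was possible because there was a single RNA-seq group. Causes of these changes were not tested. With 3 tumors, an SD is itself imprecise, and depth limits Mbd4 most, with 227 reads in tumor 2.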

Other observations

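Ctnnd1, which encodes p120 catenin, a known partner of Kaiso, was named after its values were seen. Its FPKM was 0.983, 0.504 and 0.138 in tumors 1, 2 and 3, with 221, 70 and 21 reads. Zbtb33 had the opposite order of tumors. The order of Ctnnd1 was also that of the summed FPKM of the macrophage markers (436, 147 and 36.6, with 7 of 8 highest in tumor 1), of the erythroid markers (171, 35.3 and 3.53) and of the cell cycle genes (406, 263 and 215). Their part in the level of Ctnnd1, and its relation to Zbtb33, was not tested.

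Mbd3l1 and Mbd3l2, relatives of Mbd3 without its DNA-binding domain, were also named after their values were seen. Neither had a read in any tumor. In tumor 2, the least deep library, 3 reads, the one-sided 95% limit of a count of 0, are 0.182 FPKM of Mbd3l1 and 0.0729 FPKM of Mbd3l2. The exact intervals used for levels reach 0.224 and 0.0897 FPKM.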
